A study of Mus musculus with 14 samples.

Results

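The genes described here encode the subunits of the SAGA and ATAC coactivators, the acetyltransferase complexes that are built around GCN5 (*Kat2a*) or PCAF (*Kat2b*). They were taken by name, as 31 genes of the 22534 gene symbols in the RNA-seq tables, and all 31 were found. By the place of their products in the complexes they fall into 5 genes of the acetyltransferase (HAT) module, 8 of the SAGA core, 7 of the deubiquitinase (DUB) module with its relatives, 3 for *Trrap*, *Sf3b3* and *Sf3b5*, and 8 for subunits of ATAC. The study followed mouse ES cells (strain C57BL/6) that form motor neurons in embryoid bodies (EBs) with retinoic acid and a Hedgehog agonist. The wild type line (WT, JM8 clone) was set beside a *Taf9b* knockout line (KO, TAF9B -/-, Taf9b_BG10 clone), which is 1 clone. In it all the coding exons of this X-linked gene were exchanged for a cassette of LacZ and neomycin resistance. Both lines were sequenced as ES cells and as EBs at day 2, 4 and 6, the spinal column of newborn WT and KO littermates was sequenced as whole tissue, and newborn WT spinal cord was sequenced by itself. TAF9B and RNA POL2 were mapped by ChIP-seq in motor neuron EBs of a WT line (HBG3 clone), later in differentiation than the last RNA-seq time point, with 1 library each.

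Each of the 11 RNA-seq libraries is the only one of its group, so no difference below has a replicate check and none was tested. Expression is given in FPKM, fragments scaled to the length of the transcript and to the size of the library, so that levels are per length and genes can be compared. The read counts behind the values are unknown. A gene was counted as past 2-fold only if one or both of the libraries compared had it above 1 FPKM, and log2 ratios carry no pseudocount. The libraries lie in 6 tables that the authors normalized one by one, so levels set across tables also carry the difference in scaling. The targeted gene went against the label in the cell lines. *Taf9b* (NM_001001176, mm9 chrX:103402213-103416497) had a level of 0.537 FPKM in ES cells labelled WT, against 3.06 FPKM in those labelled KO. At EB day 2 the values were 0.516 and 4.08 FPKM, at day 4 they were 1.96 and 4.27 FPKM, and at day 6 they were 1.37 and 4.01 FPKM. Only in the spinal column was the library labelled KO the lower one, at 3.31 against 6.65 FPKM, and spinal cord was at 7.44 FPKM. The files do not say which exons the values rest on. Every direction below therefore belongs to the libraries as they are labelled. *Taf9*, the paralog of *Taf9b*, was at 120 and 129 FPKM in ES cells and at 56.2 and 89.2 FPKM in the spinal column, in a row that also holds an *Ak6* transcript.

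SAGA acts in modules. Its HAT module acetylates histone tails, its DUB module removes ubiquitin from histones with USP22, TRRAP contacts transcriptional activators, and a core of TAFs and SUPT proteins holds the modules together and contacts TBP. TAF9 and TAF9B sit in this core and in TFIID. ATAC shares GCN5 or PCAF, TADA3 and SGF29 with SAGA and adds its own subunits, among them TADA2A in the place that TADA2B takes in SAGA.

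In the ChIP-seq data, TAF9B was at the promoters of these genes about as often as at those of other genes. A TAF9B peak had its midpoint within 500 bp of an annotated transcription start site (TSS) in 8 of the 31 genes, which is 25.8% with an exact 95% binomial interval of 11.9 to 44.6% that covers counting error only. Among the 11610 genes above 1 FPKM in the EB day 6 library labelled WT the share was 31.1%, within that interval. The genes were *Tada3* of the HAT module, whose product is also in ATAC, *Supt20*, *Taf10* and *Taf12* of the core, *Atxn7* and *Atxn7l2* of the DUB module, and *Sf3b3* and *Sf3b5*. Of the 8 genes whose products are in ATAC and not in SAGA 0 had one. *Pole3* among them had a TAF9B peak within 5 kb, but that peak was nearer to the TSS of another gene. POL2 lay within 500 bp of a TSS in 21 of the 31 genes, or 67.7% (48.6 to 83.3%), against 56.0% of the 11610 genes. All 8 genes with TAF9B were among these 21, 13 genes had POL2 alone, and 10 had neither, where of the 11610 genes 2714 had both, 893 TAF9B alone, 3783 POL2 alone and 4220 neither. POL2 was found at 6 of 7 DUB genes, at 5 of 8 core genes, at 5 of 8 ATAC genes, at 2 of 5 HAT genes and at 3 of 3 in the group of *Trrap*, *Sf3b3* and *Sf3b5*. The POL2 peaks of *Eny2*, *Sf3b3* and both of these HAT genes, *Tada3* and *Sgf29*, were also within 500 bp of the TSS of another gene. They cannot be assigned to 1 gene. TAF9B was at the TSS of 6 and POL2 at the TSS of 11 of 13 further TFIID genes.

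**Figure D1:**
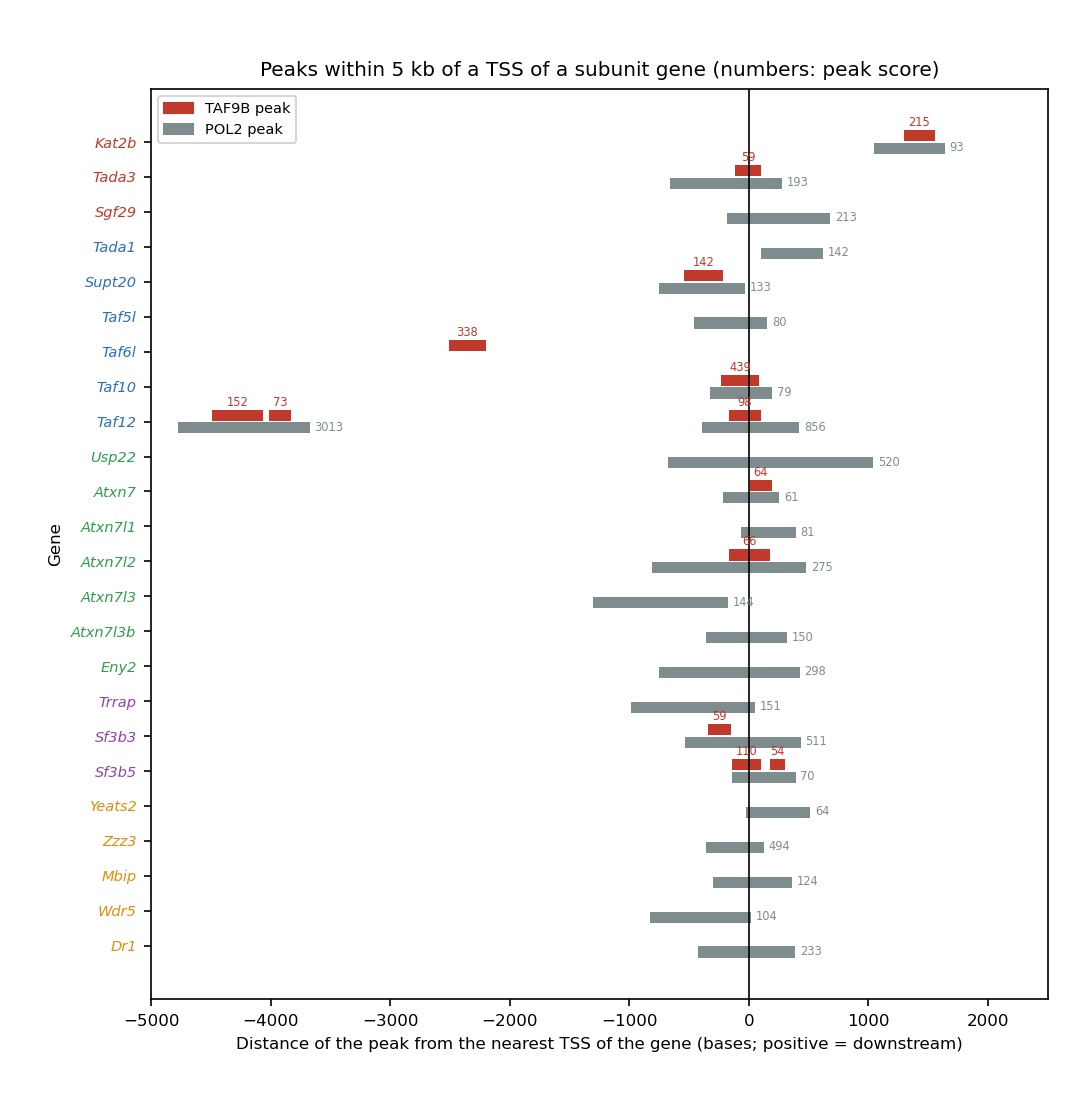
Position of the TAF9B (red) and POL2 (grey) ChIP-seq peaks given to SAGA and ATAC genes, in bases from the nearest TSS of the gene with positive values downstream, with the peak score printed beside each bar and the gene names coloured by module. Only genes with a peak within 5 kb are drawn. The TAF9B score of 439 at *Taf10* is the highest, and no TAF9B bar is drawn for *Yeats2*, *Zzz3*, *Mbip*, *Wdr5* or *Dr1* of ATAC.

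The score of a peak is the number that the MACS peak caller gave it, and the median over all 10415 TAF9B peaks was 83.3. The peak of *Taf10*, a histone-fold TAF shared by SAGA and TFIID, scored 439 and stood at the 99.5th percentile of the TAF9B list. It lay on mm9 chr7:112892788-112893110, with its midpoint at -74 bp from a TSS, where negative distances are upstream. The peak of *Supt20* (listed under its older name *Fam48a*), a core subunit, scored 142 at -381 bp. *Sf3b5*, which encodes a small subunit shared with the SF3B splicing complex, had peaks with scores of 110 at -19 bp and 53.8 at 241 bp. *Taf12*, another histone-fold TAF, scored 98.4 at -32 bp. The remaining 4 peaks were below the median score of the list. *Atxn7l2*, a relative of the DUB anchor ATXN7, scored 65.9 and *Atxn7* itself 64.2, while *Tada3* and *Sf3b3* scored 58.5 each. The *Sf3b3* peak is also at the TSS of *Cog4*, so it cannot be assigned to 1 of these genes.

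The 150 bases upstream of the TSS are shown for 4 of the genes with TAF9B, since they lie within or largely within the TAF9B peak and differ in the promoter letters they hold. They were read from the mm9 assembly on the strand of the gene, 5′ to 3′. Capitals mark letters of 7 motifs, searched on both strands: CCAAT, the ETS letters CCGGAAG, the NRF1 motif, TATAAA, the YY1 letters AAGATGG, the E-box CAGCTG, and GGGCGG, the GC box bound by SP and KLF factors. Where matches overlap, their capitals join.
Taf10, chr7:112892876-112893025, minus strand, 1 GC box: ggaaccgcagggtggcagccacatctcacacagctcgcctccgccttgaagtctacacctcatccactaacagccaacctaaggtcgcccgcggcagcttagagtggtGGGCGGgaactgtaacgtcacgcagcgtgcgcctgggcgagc
Taf12, chr4:131830140-131830289, plus strand, the NRF1 motif then the ETS letters: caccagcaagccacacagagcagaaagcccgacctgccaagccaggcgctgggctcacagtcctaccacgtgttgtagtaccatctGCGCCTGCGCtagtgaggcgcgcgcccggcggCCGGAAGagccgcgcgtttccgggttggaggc
Sf3b5, chr10:12728106-12728255, plus strand, 1 CCAAT box: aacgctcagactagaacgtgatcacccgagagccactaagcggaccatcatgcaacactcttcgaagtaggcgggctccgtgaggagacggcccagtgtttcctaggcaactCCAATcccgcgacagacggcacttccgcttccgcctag
Atxn7l2, chr3:108013853-108014002, minus strand, none of the letters: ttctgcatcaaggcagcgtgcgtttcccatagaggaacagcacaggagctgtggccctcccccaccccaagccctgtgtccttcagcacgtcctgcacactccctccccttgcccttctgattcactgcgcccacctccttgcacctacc

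All 150 bases lay within the TAF9B peak for *Taf10*, *Taf12* and *Atxn7l2*, and 137 did for *Sf3b5*. No motif was common to these 4 windows. Over the same windows of all 31 genes the GC box was held by 17 (54.8%), against 54.3% of the 11610 genes. CCAAT was held by 3 (9.68%, *Kat2b*, *Sf3b5* and *Mbip*), against 28.6%. The NRF1 motif was held by 3 (9.68%, *Tada2b*, *Taf12* and *Atxn7l3b*), against 6.79%. The ETS letters were held by *Taf12* alone (3.23% against 11%), TATAAA by *Sf3b3* alone (3.23% against 3.35%) and the YY1 letters by *Wdr5* alone (3.23% against 2.39%). The E-box was in none of the 31 windows and in 6.74% of those of all genes. The GC content of the windows had a median of 64.0% against 63.3%, and ran from 33.3% at *Sf3b3* to 82.0% at *Atxn7l3*. A match is a description of the letters only.

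TAF9B peaks away from promoters were found at 5 of the 31 genes (16.1%, 5.45 to 33.7%), against 19.1% of the 11610 genes. Among peaks above the median score the shares stood the other way round, at 12.9% and 9.58%. These peaks had their midpoint more than 500 bp from any TSS of a protein-coding gene and were given to the gene of the nearest one, up to 50 kb away. The peak given to *Taf6l*, a core subunit, scored 338 (98.7th percentile) on chr19:8860687-8860997, and it lay 2.36 kb upstream of the annotated TSS. It was 65 bp downstream of the start of the locus as the authors listed it, in a row that also holds a *Tmem179b* transcript. By that start it counts as a peak at a TSS. The peak of *Kat2b* scored 215 (92.6th percentile) in an intron, 1.43 kb downstream of the TSS, and overlapped a POL2 peak, while no POL2 peak lay at the *Kat2b* TSS itself. *Tada1*, a core subunit, had a peak with a score of 123 between genes, 18.7 kb upstream. *Taf12* had a pair of further peaks, with scores of 152 at 4.28 kb and 72.9 at 3.92 kb upstream, of which the first covered and the second lay next to the gene of the U11 small nuclear RNA, whose start was not among the TSSs used, so that they may belong to that gene. Without *Taf12* the count was 4. *Atxn7l1*, a relative of ATXN7, had an intronic peak with a score of 58.0 at 29.9 kb. The central 150 bases of the peaks of *Supt20*, *Kat2b* and *Tada1* are shown on the plus strand, as a promoter-proximal, an intronic and an intergenic site of TAF9B.
Supt20, chr3:54496571-54496720, 2 CCAAT boxes and 4 GC boxes: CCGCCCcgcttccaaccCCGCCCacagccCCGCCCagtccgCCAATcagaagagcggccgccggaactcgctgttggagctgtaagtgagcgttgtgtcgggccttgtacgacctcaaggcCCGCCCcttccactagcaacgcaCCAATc
Kat2b, chr17:53707648-53707797, 2 GC boxes: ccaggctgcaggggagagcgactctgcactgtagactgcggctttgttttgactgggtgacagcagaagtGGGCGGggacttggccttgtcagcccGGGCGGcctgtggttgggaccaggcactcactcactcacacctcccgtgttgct
Tada1, chr1:168290424-168290573, none of the letters: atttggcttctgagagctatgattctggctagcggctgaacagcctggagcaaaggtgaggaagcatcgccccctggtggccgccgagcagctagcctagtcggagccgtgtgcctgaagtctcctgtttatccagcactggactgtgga

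Of all TAF9B peak centres of this length, 27.7% held a CCAAT box and 27.1% a GC box. The share of all genes with TAF9B also moved with the level of expression. It was 24% among all genes at 1 to 5 FPKM in the EB day 6 library labelled WT, 32.3% at 5 to 20 FPKM, 33.2% at 20 to 50 FPKM and 37.8% above 50 FPKM. Of the SAGA and ATAC genes the 1 at 1 to 5 FPKM had a TAF9B peak, of those at 5 to 20 FPKM 1 of 13 had a TAF9B peak, of those at 20 to 50 FPKM 2 of 7, and of those above 50 FPKM 3 of 9.

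The SAGA and ATAC genes were transcribed in every library. All 31 were above 1 FPKM in 10 of the 11 libraries, and in the EB day 6 library labelled WT 30 were, with *Atxn7* at 0.977 FPKM. Their median was 19.7 FPKM in ES cells (WT), where all genes above 1 FPKM had a median of 11.3 FPKM. It was 20.1 FPKM at EB day 6 (WT), 8.87 FPKM in the spinal column (WT) and 9.54 FPKM in spinal cord, where the medians of all genes were 11.4, 8.63 and 8.92 FPKM. *Atxn7*, the scaffold of the DUB module, was the lowest of the 31 in each library, between 0.977 and 2.24 FPKM. The highest gene was one of *Sf3b3*, *Sf3b5* and *Taf10* in every library except the spinal column labelled WT and spinal cord, where it was *Atxn7l3b*. These are levels in whole cultures and tissues, in which fewer cells of a type and less RNA per cell cannot be told apart.

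**Figure D2:**
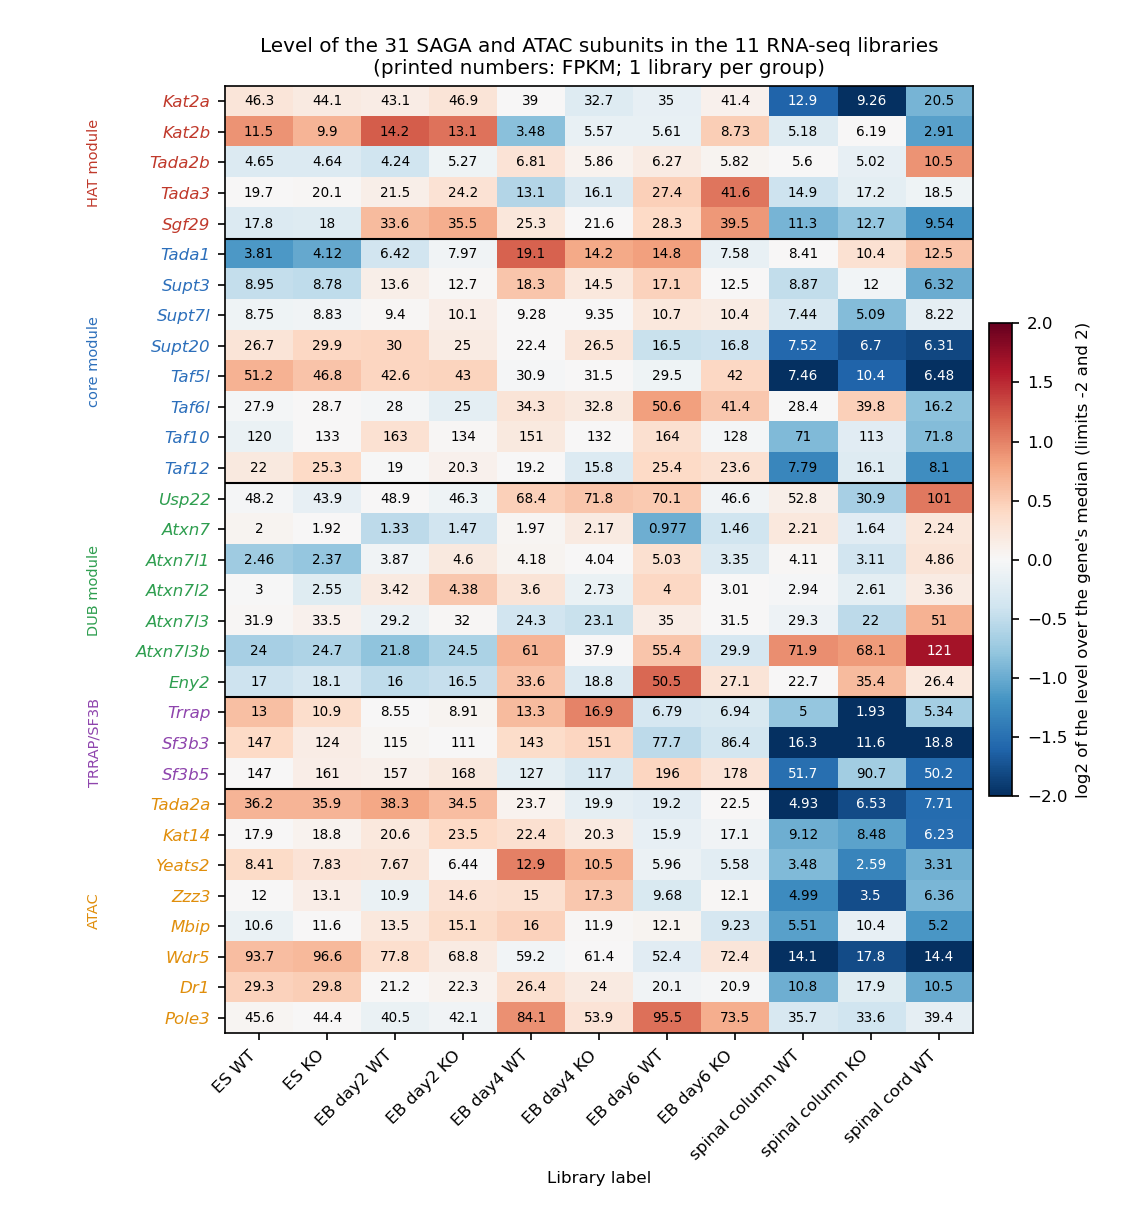
Expression of the 31 SAGA and ATAC genes (rows, by module) in the 11 RNA-seq libraries (columns), with the FPKM value printed in each cell and the colour showing log2 of that value over the median of the gene. In spinal cord *Atxn7l3b* (121 FPKM) and *Usp22* (101 FPKM) are red, and *Taf5l*, *Sf3b3*, *Wdr5* and *Tada2a* are dark blue in both newborn tissues.

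The tissues and cultures carried markers of their labels, and spinal cord also those of other cells. The 5 ES cell markers, among them *Pou5f1* and *Nanog*, summed to 1476 and 1454 FPKM in the ES cells labelled WT and KO and to 38.0 FPKM in spinal cord, where *Pou5f1* and *Zfp42* were listed at 0. The 6 neuronal markers summed to 1748 FPKM in spinal cord, to 891 FPKM at EB day 6 (WT) and to 171 FPKM in ES cells (WT). The 5 motor neuron markers reached 73.4 FPKM at EB day 6 (WT) and 30.0 FPKM in spinal cord. In spinal cord the 6 markers of astrocytes and oligodendrocytes summed to 384 FPKM against 7.21 FPKM in ES cells (WT), the 4 blood markers found to 479 against 0.191 FPKM and the 5 skeletal muscle markers, mostly *Acta1*, to 151 against 11 FPKM. Their part in the ratios of spinal cord over ES cells was not tested.

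Spinal cord was set against the ES cell library labelled WT within 1 table. The table lists the ES cells at values higher by a constant factor of 1.09 than the table of ES cells labelled WT and KO, from which the ES cell levels below are taken. Here the modules went apart, with DUB genes level or higher in spinal cord and ATAC genes lower. Of the 31 genes, 3 were past 2-fold higher in spinal cord, against a background of 30.3% of the 14129 genes compared, and 16 were past 2-fold lower, against 35.7%. All 7 DUB genes had a ratio above 0, with a median log2 ratio of 0.55, while all 8 ATAC genes were below 0, with a median of -1.54 and 7 of them past 2-fold. Of the HAT genes 4 of 5 were below 0 (median -1.02), of the core 7 of 8 (median -0.88), and *Trrap*, *Sf3b3* and *Sf3b5* all were (median -1.67). Of all genes 54.8% were below 0, and the median over those above 1 FPKM in both libraries was -0.46. Centred on that median the DUB genes stayed at 7 of 7 above, the ATAC genes went to 7 of 8 below, the counts past 2-fold went to 6 higher (with *Usp22*, *Atxn7l1* and *Atxn7l3* added) and 11 lower, where 36.5% and 27.3% of all genes then were, and *Tada3*, *Supt7l* and *Pole3* changed sides.

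**Figure D3:**
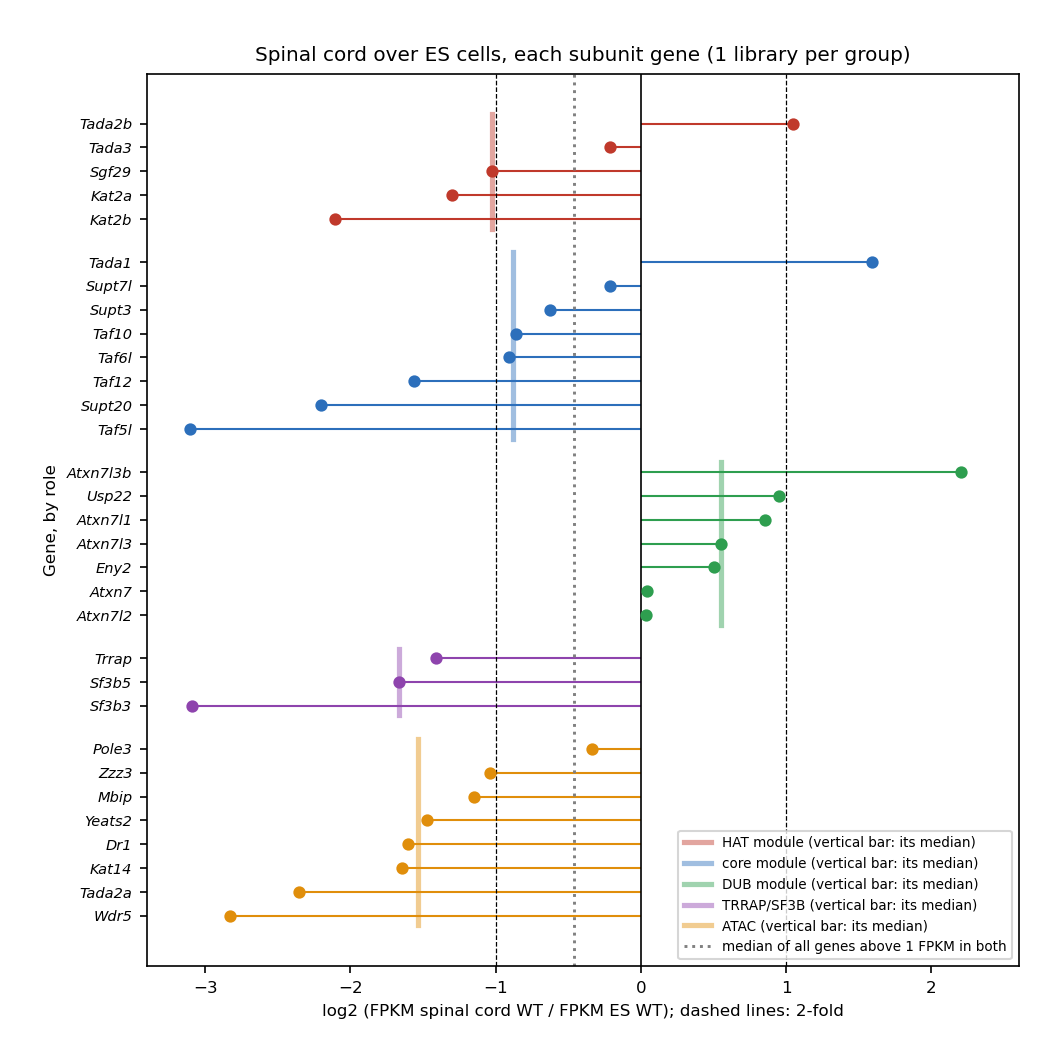
Log2 ratio of FPKM, newborn spinal cord over ES cells labelled WT, for each of the 31 genes by module, with vertical bars at the median of each module, dashed lines at 2-fold and a dotted line at the median of all genes above 1 FPKM in both libraries (-0.46). *Atxn7l3b* (2.20) is the highest and *Taf5l* (-3.11) the lowest, all 7 DUB genes lie above 0 and all 8 ATAC genes below it.

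In the values that follow, the library labelled WT comes before the one labelled KO. *Atxn7l3b*, whose product binds ENY2 outside SAGA, had the highest ratio of the 31 genes, 2.20. It was at 24 and 24.7 FPKM in ES cells, 21.8 and 24.5 at EB day 2, 61.0 and 37.9 at day 4, 55.4 and 29.9 at day 6, 71.9 and 68.1 in the spinal column and 121 FPKM in spinal cord. Its highest value was in spinal cord and its lowest at EB day 2 (WT). *Tada1* had a ratio of 1.59 and was at 3.81 and 4.12 FPKM in ES cells, 6.42 and 7.97 at day 2, 19.1 and 14.2 at day 4, 14.8 and 7.58 at day 6, 8.41 and 10.4 in the spinal column and 12.5 FPKM in spinal cord. Its highest value was at EB day 4 (WT), and its lowest were in ES cells. Other DUB genes with spinal cord above ES cells were *Usp22*, the ubiquitin protease itself (ratio 0.95, 101 FPKM in spinal cord), *Atxn7l1* (0.86) and *Atxn7l3*, an adaptor that USP22 needs for activity (0.55). *Eny2* was at 0.51, and *Atxn7* and *Atxn7l2* were both at 0.04. *Usp27x* and *Usp51*, proteases that use ATXN7L3 and ENY2 outside SAGA, had ratios of 1.26 and 1.31.

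At the other end stood *Taf5l*, the SAGA form of TAF5 in the core, with a ratio of -3.11. It was at 51.2 and 46.8 FPKM in ES cells, 42.6 and 43.0 at day 2, 30.9 and 31.5 at day 4, 29.5 and 42.0 at day 6, 7.46 and 10.4 in the spinal column and 6.48 FPKM in spinal cord. *Sf3b3*, shared with the SF3B splicing complex, had a ratio of -3.09, with 147 and 124 FPKM in ES cells, 115 and 111 at day 2, 143 and 151 at day 4, 77.7 and 86.4 at day 6, 16.3 and 11.6 in the spinal column and 18.8 FPKM in spinal cord. *Wdr5*, a WD40 protein that ATAC shares with the MLL and SET1 methyltransferases, had a ratio of -2.83. It was at 93.7 and 96.6 FPKM in ES cells, 77.8 and 68.8 at day 2, 59.2 and 61.4 at day 4, 52.4 and 72.4 at day 6, 14.1 and 17.8 in the spinal column and 14.4 FPKM in spinal cord. In all 3 the lowest values were those of the newborn tissues, and other members such as *Tada2a* and *Kat2a* shared that order. The other ATAC genes past 2-fold lower were *Tada2a* (-2.35), *Kat14* (-1.65, listed as *Csrp2bp*), an acetyltransferase, *Dr1* (-1.60), *Yeats2* (-1.47), a histone reader, *Mbip* (-1.15) and *Zzz3* (-1.04). *Pole3*, a histone-fold protein also of DNA polymerase epsilon, was the exception at -0.33.

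Complexes that share these subunits are set beside the 54.8% of all genes with a ratio below 0. Of 47 further genes of TIP60, SF3B, MLL and SET1, TREX-2, the NC2, CHRAC and polymerase epsilon group and the DUB relatives, 36 were below 0, with a median of -0.89, and 22 were past 2-fold lower against 4 higher. Of 13 further TFIID genes 12 were below 0 (median -1.33), and *Taf9b* at 3.67 was the one above. SF3B had 5 of 5 below 0 (median -1.27), MLL and SET1 9 of 11 (median -1.72) and TIP60, which shares TRRAP, 11 of 17 (median -0.61).

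The acetyltransferases *Kat2a* and *Kat2b*, which take the same place in SAGA and ATAC, were both lower in spinal cord. *Kat2a* (NM_001038010, mm9 chr11:100566060-100573781) was at 46.3 and 44.1 FPKM in ES cells, 43.1 and 46.9 at EB day 2, 39.0 and 32.7 at day 4, 35.0 and 41.4 at day 6, 12.9 and 9.26 in the spinal column and 20.5 FPKM in spinal cord. *Kat2b* (NM_001190846, chr17:53706296-53812046) was at 11.5 and 9.90, 14.2 and 13.1, 3.48 and 5.57, 5.61 and 8.73, 5.18 and 6.19, and 2.91 FPKM in the same order. *Kat2a* was the higher of the pair in all 11 libraries, by a factor of between 1.5 in the spinal column (KO) and 11.2 at EB day 4 (WT), and by 4.03 in ES cells (WT) and 7.04 in spinal cord.

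The pair of TADA2 adaptors, which tell ATAC from SAGA, changed order. *Tada2a*, of ATAC, was at 36.2 and 35.9 FPKM in ES cells, 38.3 and 34.5 at EB day 2, 23.7 and 19.9 at day 4, 19.2 and 22.5 at day 6, 4.93 and 6.53 in the spinal column and 7.71 FPKM in spinal cord. *Tada2b*, of SAGA, was at 4.65 and 4.64, 4.24 and 5.27, 6.81 and 5.86, 6.27 and 5.82, 5.60 and 5.02, and 10.5 FPKM, and it had the third highest ratio of spinal cord over ES cells, 1.05. *Tada2a* was 7.78 times *Tada2b* in ES cells (WT), 9.02 times at day 2, 3.48 times at day 4 and 3.05 times at day 6. In spinal cord it was 0.736 times and in the spinal column 0.881 (WT) and 1.3 (KO) times *Tada2b*. For *Tada2b*, 10.8% of the exonic bases are shared with *Grpel1*, and how the counting treated such bases is not given in the sources used here.

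During the formation of motor neuron EBs 6 of 7 DUB genes and 2 of 8 ATAC genes had a ratio above 0 in the line labelled WT, where 57.7% of all genes had. From ES cells to EB day 6 in this line, whose libraries come from separate tables, 5 of the 31 genes were past 2-fold higher, against 23.0% of 12825 genes, and 2 were past 2-fold lower, against 15.0%. The genes that were higher were *Tada1* (1.96), *Eny2*, a small DUB subunit also of the TREX-2 export complex (1.57), *Atxn7l3b* (1.21), *Pole3* (1.07) and *Atxn7l1* (1.03), and the lower ones were *Kat2b* (-1.04) and *Atxn7* (-1.03). Centring on the median of all genes turned the balance, to 3 higher and 5 lower, where 19.3% and 17.5% of all genes then were, with *Trrap*, *Sf3b3* and *Tada2a* added to the lower ones. The DUB genes had a median of 0.54, with 5 of 7 above 0 after centring, and the ATAC genes had a median of -0.40. In the line labelled KO, the same comparison had 2 genes past 2-fold higher, *Sgf29* (1.13, listed as *Ccdc101*), a histone reader of both complexes that shares 12.8% of its exonic bases with other genes, and *Tada3* (1.05), against 16.9% of 12691 genes, and 0 past 2-fold lower, against 9.51%. There 5 of 7 DUB genes were above 0 (median 0.24), or 4 of 7 after centring, against 57.4% of all genes, and 7 of 8 ATAC genes were below (median -0.38). Ratios of shorter transcripts were higher in both comparisons. Spearman's rho of the ratio with transcript length was -0.27 over 12130 genes and -0.53 over the 31 members for the line labelled WT, and -0.29 over 12004 genes and -0.56 for the line labelled KO. The part of length in these results was not tested further than by removing the trend. In the line labelled WT, 3 genes were then past 2-fold higher and 1 (*Tada2a*) lower, where 17.8% and 14.9% of all genes were. With coding length 2 were higher and 3 (*Tada2a*, *Wdr5* and *Dr1*) lower, against 17.7% and 14.2%. *Kat2b* and *Atxn7* were past 2-fold in neither. In the line labelled KO 0 genes were past 2-fold, against 13.4% higher and 9.06% lower (13.4 and 8.83% with coding length).

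The libraries labelled KO and WT differed little in the SAGA and ATAC genes of ES cells and early EBs. In ES cells 0 of 31 genes were past 2-fold higher and 0 lower, where 0.464% and 0.574% of 11857 genes were. The log2 ratios, KO over WT, ran from -0.25 for *Trrap* to 0.20 for *Taf12*, with a median of 0.01. At EB day 2 the count was again 0 and 0 of 31, against 1.15% and 1.33% of 11790 genes, and the ratios ran from -0.28 for *Taf10* to 0.43 for *Zzz3*, with a median of 0.08. At EB day 4, 12.1% of 12365 genes were past 2-fold higher and 4.29% lower, but still 0 and 0 of the 31. The ratios ran from -0.84 for *Eny2* to 0.68 for *Kat2b*, and 20 of the 31 were below 0 (19 after centring), against 52.2% of all genes. At EB day 6, 10.5% of 12802 genes were past 2-fold higher and 9.83% lower, and 0 and 0 of the 31. With 1 library per group these counts do not show that the genes were unchanged.

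**Figure D4:**
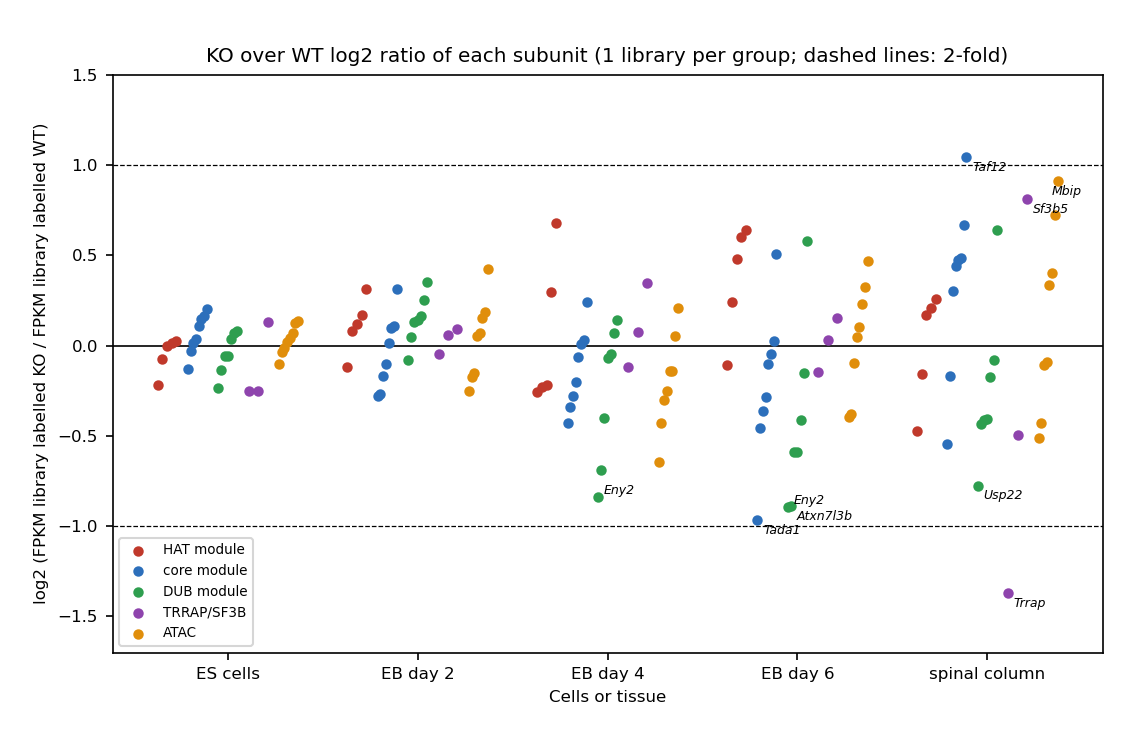
Log2 ratio of FPKM, libraries labelled KO over WT, for each of the 31 genes (points, coloured by module) in ES cells, EBs at day 2, 4 and 6, and spinal column, with a line at 0 and dashed lines at 2-fold. The points spread from within 0.25 of 0 in ES cells to -0.97 and 0.64 at EB day 6, and only *Taf12* and *Trrap* in the spinal column lie past a 2-fold line.

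At EB day 6 the genes closest to 2-fold were *Tada1* (-0.97), *Eny2* (-0.90) and *Atxn7l3b* (-0.89). Their ratios of EB day 6 over ES cells in the line labelled WT, which rest on the same EB library, were 1.96, 1.57 and 1.21. *Eny2* (mm9 chr15:44206773-44269231) was at 17.0 and 18.1 FPKM in ES cells, 16 and 16.5 at day 2, 33.6 and 18.8 at day 4, 50.5 and 27.1 at day 6, 22.7 and 35.4 in the spinal column and 26.4 FPKM in spinal cord. It was thus lower in the library labelled KO at day 4 and day 6 and higher in it in the spinal column. Of the DUB genes 6 of 7 were below 0 at day 6 (median -0.59), against 50.1% of all genes, with *Usp22* (-0.59) and *Atxn7l1* (-0.59) beside those named and *Atxn7* (0.58) as the one above. Of the HAT genes 4 of 5 were above 0 (median 0.48), led by *Kat2b* (0.64) and *Tada3* (0.60), of the core 2 of 8 (median -0.19) and of ATAC 5 of 8 (median 0.08). Of the 47 genes of the complexes that share subunits, 22 were above and 25 below 0 (median -0.02). These complexes differed from each other. TREX-2, which shares ENY2, and SF3B each had 4 of 5 below 0, as most DUB genes were. MLL and SET1 had 8 of 11 above 0, and TIP60 had 8 of 17 above.

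The EBs labelled KO also differed in their cell type markers. At day 6 the 5 ES cell markers summed to 960 FPKM in the library labelled KO against 410 FPKM in WT, and the 4 epithelial markers, which include *Krt8* and *Krt18*, to 1016 against 148 FPKM. The 6 neuronal markers summed to 111 against 891 FPKM, the 5 neural progenitor markers to 13.8 against 109 FPKM and the 5 motor neuron markers to 2.99 against 73.4 FPKM, with *Chat* listed at 0 in the library labelled KO. At day 4 the neural progenitor markers were at 47.7 against 301 FPKM and the ES cell markers at 263 against 113 FPKM. The part of these differences in the ratios of the SAGA and ATAC genes was not tested.

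In the spinal column 1 of the 31 genes was past 2-fold higher in the library labelled KO, against 8.98% of 13985 genes, and 1 was past 2-fold lower, against 8.47%. The gene that was higher was *Taf12* (NM_025579, mm9 chr4:131830290-131849244), with a log2 ratio of 1.05. With 1 FPKM added to both values, or after centring, *Taf12* was not past 2-fold. It was at 22 and 25.3 FPKM in ES cells, 19.0 and 20.3 at EB day 2, 19.2 and 15.8 at day 4, 25.4 and 23.6 at day 6, 7.79 and 16.1 in the spinal column and 8.10 FPKM in spinal cord. The spinal column library labelled WT was close to spinal cord, and the one labelled KO was close to the lower EB values. The gene that was lower was *Trrap* (chr5:145529661-145620642), with a ratio of -1.37. It was at 13 and 10.9 FPKM in ES cells, 8.55 and 8.91 at day 2, 13.3 and 16.9 at day 4, 6.79 and 6.94 at day 6, 5.0 and 1.93 in the spinal column and 5.34 FPKM in spinal cord. The spinal column library labelled KO was the lowest of the 11 for *Trrap*. Of all genes 53.3% were above 0. Of the core genes 6 of 8 were (median 0.46) and of the DUB genes 6 of 7 below (median -0.40), with *Eny2* (0.64) as the one above.

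The ratios in the spinal column followed transcript length over the whole table. Spearman's rho between the length and the ratio was -0.59 over 13228 genes and -0.45 over the 31 members. Genes with transcripts of up to 2000 bp had a median ratio of 0.51 and those of 4000 bp or more of -0.51. Among the members, 6 of 7 of the short ones were above 0 and 2 of 7 of the long ones. For *Trrap*, with 12456 bp, the trend at its length was -1.18, which leaves -0.19. For *Taf12* the remainder was 1.27 with the annotated transcript length of 3787 bp and 0.60 with the coding length. After the trend with transcript length was removed, 3 of 7 DUB genes were above 0. *Eny2* stayed above 0 with transcript length but was below 0 with coding length, as given further below. These correlations run across genes, which are not independent replicates, and the origin of the trend was not tested.

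**Figure D5:**
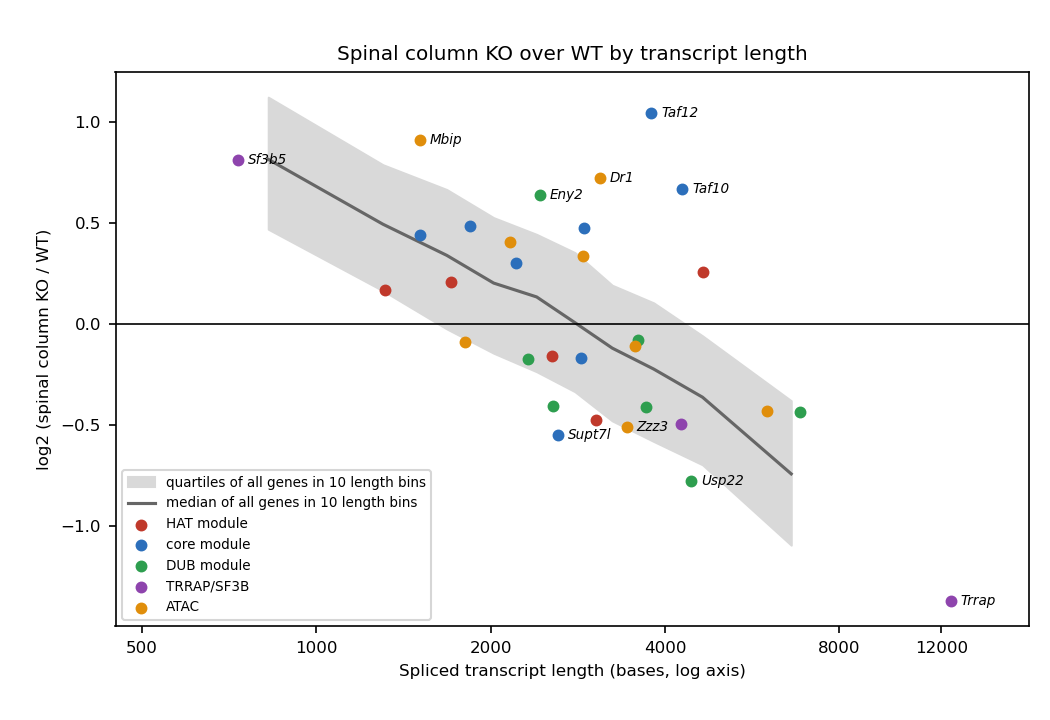
Log2 ratio of FPKM in the spinal column, library labelled KO over WT, against transcript length in bp (log axis), with the median (line) and quartiles (grey band) of all genes in 10 length bins and the 31 members as points coloured by module. The bin medians go from 0.81 for the shortest to -0.74 for the longest, *Trrap* is the longest and lowest point, and *Taf12* lies above the grey band.

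The tissue content of the spinal column libraries differed as well. The 4 blood markers that were found summed to 3109 FPKM in the library labelled KO against 984 FPKM in WT, nearly all of it *Hbb-bt*. The 4 epithelial markers summed to 83.9 against 5.39 FPKM, of which *Krt5* made up 68.8 against 0.599 FPKM. The 6 neuronal markers were at 479 against 813 FPKM and the 5 cartilage and bone markers at 849 against 1595 FPKM. Of the muscle markers, *Acta1* in both libraries and *Ckm* in the one labelled KO were listed at 0 with the status HIDATA, by which Cuffdiff marks a locus with too many fragments, while *Tnnt3* was at 4489 against 2927 FPKM and *Myh3* at 218 against 420 FPKM. Their part in the ratios of *Taf12*, *Trrap* and *Eny2* was not tested.

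The genes with TAF9B at the TSS did not share a course in the RNA-seq data. *Taf10*, with the highest TAF9B score, was at 120 and 133 FPKM in ES cells, 163 and 134 at EB day 2, 151 and 132 at day 4, 164 and 128 at day 6, 71.0 and 113 in the spinal column and 71.8 FPKM in spinal cord. Of its exonic bases 45.9% are shared with *Ilk*, so that its level is uncertain. *Sf3b5* was at 147 and 161, 157 and 168, 127 and 117, 196 and 178, 51.7 and 90.7, and 50.2 FPKM in the same order. Both genes were high in cells and EBs and lower in spinal cord. *Supt20* was at 26.7 and 29.9, 30.0 and 25, 22.4 and 26.5, 16.5 and 16.8, 7.52 and 6.70, and 6.31 FPKM, so the EB day 6, spinal column and spinal cord libraries were all below both ES cell libraries. *Tada3*, an adaptor of both complexes, was at 19.7 and 20.1, 21.5 and 24.2, 13.1 and 16.1, 27.4 and 41.6, 14.9 and 17.2, and 18.5 FPKM, with its highest value at EB day 6 (KO). *Atxn7* was at 2.00 and 1.92, 1.33 and 1.47, 1.97 and 2.17, 0.977 and 1.46, 2.21 and 1.64, and 2.24 FPKM. *Atxn7l2* was at 3.0 and 2.55, 3.42 and 4.38, 3.60 and 2.73, 4.0 and 3.01, 2.94 and 2.61, and 3.36 FPKM. These 2 genes were at or below 4.38 FPKM in every library.

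Further core genes are given by single values. *Supt7l*, which carries a histone fold in the core, had KO over WT ratios close to 0 in culture. They were 0.01, 0.11, 0.01 and -0.05 in ES cells and at day 2, 4 and 6. In the spinal column its ratio was -0.55. With the trend with transcript length removed it was -0.60 there, the lowest of the 31 genes. *Supt3*, the core subunit that contacts TBP, went from 8.95 FPKM in ES cells to 17.1 FPKM at day 6 in the line labelled WT (ratio 0.94) and stood at 6.32 FPKM in spinal cord. *Taf6l*, the SAGA form of TAF6, went from 27.9 to 50.6 FPKM (0.86) and stood at 16.2 FPKM in spinal cord, in a row that also holds a *Tmem179b* transcript. *Atxn7l1* is listed at 2 loci. The values above are of the first, and at the second the ratio of EB day 4, KO over WT, was 1.03.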

How the data were processed

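RNA-seq was done on poly-A RNA of 11 mouse libraries, and ChIP-seq peak lists of TAF9B and RNA POL2 were used. The authors mapped RNA-seq reads to RefSeq genes with TopHat and made FPKM values with Cuffdiff, in 6 deposited tables of 23152 loci. ChIP-seq reads were mapped with Bowtie to mm9, and each peak carries the score of MACS, deposited as the authors made it. Versions are not given in the sources used here. The IgG control library was not analysed here. The tables also hold the authors' own log2 fold changes and p-values, which were not used. Loci with the status FAIL or HIDATA were left out of the counts of ratios, and loci with other statuses were kept.

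Read counts and depth are unknown, and FPKM steps could not be turned back into whole reads. With 1 library per group no test was made. Log2 ratios of FPKM were taken without a pseudocount for genes that one or both libraries had above 1 FPKM, and called past 2-fold. Locus starts were made 1-based. Symbols, TSSs, exons and transcript lengths came from the NCBIM37 annotation (the same build as mm9) through RefSeq accessions, with the median length of a gene's coding transcripts. The trend with length was fitted by lowess (fraction 0.3). TSSs were those of protein-coding genes. A peak was at a TSS when its midpoint was within 500 bp, and distal peaks were given to the nearest TSS up to 50 kb away. Intervals of shares are exact binomial ones. Motif letters were searched in 150 bp windows after the data had been seen.

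Values in every library are given for genes past 2-fold in a KO over WT comparison, for the 3 highest and 3 lowest ratios of spinal cord over ES cells, for both paralog pairs and for genes with TAF9B at a TSS. *Eny2* and the genes given with single values were picked with their values in view. The members, lists and this rule were chosen with earlier results of these data known. The calls past 2-fold and the removal of a known trend were tested on simulated data. The peak counts and the fit of the trend were not. Statistics used scipy 1.17.1 and statsmodels 0.14.6, tables pandas 2.3.3 and numpy 2.4.6, and plots matplotlib 3.10.9, all under Python 3.11.15.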

Additional observations from a re-analysis of the deposited data

Results flagged for a closer look

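*Eny2*, which encodes a small subunit of the DUB module and of TREX-2, had KO over WT log2 ratios of opposite sign in culture and in tissue. The ratio was -0.90 at EB day 6 (50.5 FPKM in the library labelled WT and 27.1 FPKM in the one labelled KO) and 0.64 in the spinal column (22.7 and 35.4 FPKM). Both ratios were past 1.5-fold, in opposite directions. Of 11745 genes compared in both, 612 (5.21%) did the same, and *Eny2* was the 1 of 31 SAGA and ATAC genes that did. The difference was not tested, since each group is 1 library. With the trend with coding length removed, the ratio of *Eny2* in the spinal column was -0.13, and with transcript length removed it was 0.55.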

How the results depend on the processing

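No paired analysis was possible because each group holds 1 library and no result comes from a test, and for the same reason no replicate could be left out. Median log2 ratios of the 31 genes moved by less than the spread between genes under every alternative run. The counts past 2-fold in ES cells, at EB day 2 and in spinal cord over ES cells stayed within 1.5 times, the last at 15 to 24 of 31, but its split moved from 3 higher and 16 lower to 6 and 11 with centring (all genes 36.5 and 27.3%). With a limit of 1.5-fold, and beside the shares of all genes higher and lower, the counts were 4 at EB day 4 (1 higher, 3 lower, 19.6 and 12.3%), 7 at EB day 6 (2 and 5, 18.8 and 17.8%), 8 in the spinal column (6 and 2, 21.9 and 19.1%), 16 for EB day 6 over ES cells in WT (8 and 8, 35.6 and 23.6%) and 8 in KO (5 and 3, 29.9 and 18.4%). The percentages that follow are again shares of all genes higher and lower. With 1 FPKM added the spinal column had 1 (*Trrap*, 6.02 and 3.96%) and EB day 6 over ES cells (WT) had 4 (17.9 and 11.2%). Centring left 1 in the spinal column (*Trrap*, 7.87 and 9.67%) and 1 in EB day 6 over ES cells (KO, *Sgf29*, 14.6 and 11.3%). It turned the split in WT from 5 higher and 2 lower to 3 and 5 (19.3 and 17.5%). After the trend with transcript length was removed, 1 was past 2-fold in the spinal column (*Taf12*, 4.36 and 5.51%). In EB day 6 over ES cells there were 4 (WT, 17.8 and 14.9%), with *Tada2a* new among them, and 0 (KO, 13.4 and 9.06%). With coding length there were 0 in the spinal column (4.11 and 6.35%) and 5 in WT (2 higher and 3 lower, 17.7 and 14.2%). Of these, *Tada2a*, *Wdr5* and *Dr1* were new. The line labelled KO had 0 with coding length (13.4 and 8.83%). The second locus of *Atxn7l1* gave 1 at EB day 4 (12.1 and 4.29%). The trends and the second locus were chosen after seeing the data. The share of genes with POL2 at a TSS was 38.7% for peaks above the median score (32% of all genes). That with TAF9B was 12.9% for such peaks (20.2%), 35.5% within 5 kb (38.8%) and 29.0% by the starts of the deposited loci. The share with a distal TAF9B peak was 12.9% above the median score (9.58%) and 12.9% up to 20 kb (14.3%). What 1 library can show is the limit of every ratio.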
